A study of Homo sapiens with 6 samples.

Results

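Complex I of the respiratory chain, NADH:ubiquinone oxidoreductase, was followed through the messenger RNAs of its nuclear-encoded subunits and assembly factors in RCC10, a human cell line established from clear cell renal carcinoma. Members were the rows of the deposited count table whose symbols begin with NDUFA, NDUFB, NDUFC, NDUFS or NDUFV, NDUFAF and NDUFAB1 genes included, without NDUFA4 and NDUFA4L2. The rule found 47 of the 19009 listed genes. Of these, 44 were protein-coding members, and all 44 were tested: 7 core subunits, 9 accessory subunits of the matrix arm, 20 accessory subunits of the membrane arm, the acyl carrier NDUFAB1, and 7 NDUFAF assembly factors. The 3 remaining rows, the pseudogene NDUFAF4P1, the antisense row NDUFB2-AS1 and the read-through row NDUFC2-KCTD14, encode no subunit of their own and were kept apart.

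The study compared 3 groups of RCC10 cells with 2 libraries each. The first group was the HIF-1/2alpha double knockout, made with lentiviral guide RNAs and puromycin selection, which lacks the alpha subunits encoded by HIF1A and EPAS1 by its label. The second, here called VHL-restored, had received a lentivirus carrying VHL, the ubiquitin ligase subunit that marks HIF alpha proteins for destruction. The third was the parental line, labelled as control, with no virus named. All cells were grown in DMEM with 10% serum, and polyadenylated RNA was sequenced. The labels name no non-targeting guide or empty vector group, and do not say if the double knockout is 1 clone. Nor do they say that replicates were separate cultures, and p-values here cover no more than library-to-library spread, which may be technical.

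Complex I takes electrons from NADH, passes them along a chain of iron-sulfur clusters to ubiquinone, and pumps protons across the inner mitochondrial membrane. Its matrix arm holds the NADH site, the clusters and the quinone site, and its membrane arm holds the proton pumps, which are core subunits encoded by mitochondrial DNA and were not analysed here. Accessory subunits surround the catalytic core, and assembly factors build the complex in modules and then leave it. HIF, the oxygen-regulated transcription factor that VHL keeps low, is known for moving cells from respiration towards glycolysis. Loss of VHL and stable HIF are defining features of clear cell renal carcinoma.

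Promoter windows of 7 members are shown, because NRF1, HIF and E-box factors are known regulators of mitochondrial or metabolic genes: the 5 members that hold the NRF1 letters, whatever their change, and the pair with the largest rises in double-knockout cells. Windows came from RefSeq (GRCh38.p14), 250 bases before each annotated start, and 38 of the 44 members matched an entry. Both strands were searched. The NRF1 letters, GCGC then any base then TGCGC, were found in 5 of the 38 windows (13.2%), against 7.64% of 15805 other protein-coding promoters. Capitals mark only those letters in the 90-base stretches of the 5 genes, read 5′ to 3′ on the gene's strand: NDUFA12 (chr12:95003764-95003853, minus strand), NDUFA3 (chr19:54102645-54102734, plus strand), NDUFA9 (chr12:4648994-4649083, plus strand), NDUFB4 (chr3:120596137-120596226, plus strand) and NDUFA11 (chr19:5903839-5903928, minus strand).
NDUFA12: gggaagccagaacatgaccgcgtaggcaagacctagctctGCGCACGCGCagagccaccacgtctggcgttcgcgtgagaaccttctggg
NDUFA3: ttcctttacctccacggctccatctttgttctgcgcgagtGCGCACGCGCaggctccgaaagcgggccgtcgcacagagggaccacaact
NDUFA9: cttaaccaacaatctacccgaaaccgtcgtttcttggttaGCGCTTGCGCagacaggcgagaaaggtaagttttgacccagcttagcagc
NDUFB4: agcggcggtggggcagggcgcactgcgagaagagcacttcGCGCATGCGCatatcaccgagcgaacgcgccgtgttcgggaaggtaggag
NDUFA11: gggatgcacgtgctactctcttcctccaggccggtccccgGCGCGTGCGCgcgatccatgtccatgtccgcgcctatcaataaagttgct

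The letters ACGTG, a form of the core of the HIF response element, occurred in 9 of the 38 windows (23.7%), against 20.8% of other promoters. The form GCGTG was not searched and is not marked below. The E-box CACGTG, which contains ACGTG on both strands, occurred in 4 of them (10.5%), against 7.83%. The shares for the ETS letters CCGGAAG were 15.8% of members and 11.8% of other promoters, for the ERR letters AAGGTCA 7.89% of members and 2.78% of others, and for the YY1 letters AAGATGG 2.63% of members and 3.35% of others. The whole 250-base windows of NDUFAF5 (chr20:13784778-13785027, plus strand) and NDUFS7 (chr19:1383657-1383906, plus strand) are printed because these genes had the largest rises in double-knockout cells, and capitals mark ACGTG on either strand.
NDUFAF5: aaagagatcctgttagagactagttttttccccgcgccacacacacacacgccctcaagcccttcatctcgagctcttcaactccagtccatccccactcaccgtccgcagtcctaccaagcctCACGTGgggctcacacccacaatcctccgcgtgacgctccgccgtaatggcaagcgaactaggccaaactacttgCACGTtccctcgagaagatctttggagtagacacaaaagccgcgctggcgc
NDUFS7: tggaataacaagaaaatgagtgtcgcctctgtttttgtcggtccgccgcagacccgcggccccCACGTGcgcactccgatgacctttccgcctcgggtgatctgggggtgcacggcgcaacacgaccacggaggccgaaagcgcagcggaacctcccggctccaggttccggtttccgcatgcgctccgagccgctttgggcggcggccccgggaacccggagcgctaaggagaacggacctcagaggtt
A match of letters is a description of the sequence and no binding was measured.

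Total counts per library were 22248126 to 29929116, and each member had between 202 and 5303 counts in every library. Levels are given as CPM, counts relative to the library size after TMM scaling. EPAS1 had 44.4 and 48.0 CPM in double-knockout cells, 363 and 369 CPM in VHL-restored cells, and 352 and 349 CPM in parental cells. HIF1A had 29.6 and 31.6 CPM in double-knockout, 304 and 286 CPM in VHL-restored and 69.5 and 72.9 CPM in parental libraries, and VHL had 43.3 and 47.3 CPM in double-knockout, 652 and 723 CPM in VHL-restored and 38.8 and 39.5 CPM in parental libraries. Both knocked-out genes were lowest in the double knockout, and VHL was highest where it had been added. Of 8 renal and epithelial markers, 4 rose and 2 fell in double-knockout cells and 3 rose and 2 fell in VHL-restored cells. As shares, 50% were higher and 25% lower in the double knockout, against 26.6% and 27.5% of all genes tested. For VHL-restored cells the shares were 37.5% and 25%, against 26.5% and 27.7%. The share of falls was thus near the background in both groups. The summed level of the 8 markers was 6771 and 6782 CPM in double-knockout, 5757 and 6106 CPM in VHL-restored and 8428 and 8398 CPM in parental libraries. PAX8, PAX2, CA9 and CUBN make up a small part of this sum, and the rest is KRT8, KRT18, VIM and LRP2. PAX8, a renal lineage factor, lay between 297 and 416 CPM in every library, while CA9, a HIF target typical of clear cell carcinoma, did not exceed 0.0441 CPM in any. The markers with the widest changes, named after their values were seen, were PAX2, with 15.9 and 14.8 CPM in double-knockout, 0.859 and 1.36 CPM in VHL-restored and 1.48 and 1.85 CPM in parental libraries, and CUBN. CUBN had 0.479 and 0.505 CPM in double-knockout, 0.966 and 0.607 CPM in VHL-restored and 6.13 and 6.57 CPM in parental libraries. Leukocyte and endothelial marker sums stayed at or below 0.393 CPM. The fibroblast marker sum, nearly all COL1A1, was 1.37 and 1.44 CPM in double-knockout, 10.1 and 8.29 CPM in VHL-restored and 8.56 and 8.60 CPM in parental libraries. The part of these markers in the results below was not tested.

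Complex I messenger RNA as a whole was most abundant in the double knockout. The summed level of the 44 members was 2942 and 2922 CPM in double-knockout libraries, 2351 and 2590 CPM in VHL-restored libraries, and 2328 and 2332 CPM in parental libraries. The double-knockout libraries lay above all others, and the VHL-restored libraries above the parental ones, the first of them by a small margin. Within the VHL-restored group, members were higher in replicate 2, by a median of 0.13 on the log2 scale (replicate 1 minus replicate 2 was -0.13), against medians of 0.03 in double-knockout and 0.00 in parental pairs. The chi-square of replicate counts per member was 10.7 in VHL-restored, 3.68 in double-knockout and 1.55 in parental pairs. Because the test shares its estimate of spread over all groups, errors given for VHL-restored cells may be too small. Per unit of transcript length, assembly factors were the scarcest class. Their median was 9.60 CPM per kilobase in double-knockout cells, 8.91 in VHL-restored cells and 9.55 in parental cells, while core subunits had medians of 78.6 CPM per kilobase in double-knockout, 76.3 in VHL-restored and 68.2 in parental cells. In whole-culture RNA, a change in the share of cells and a change in RNA per cell cannot be told apart.

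**Figure D1:**
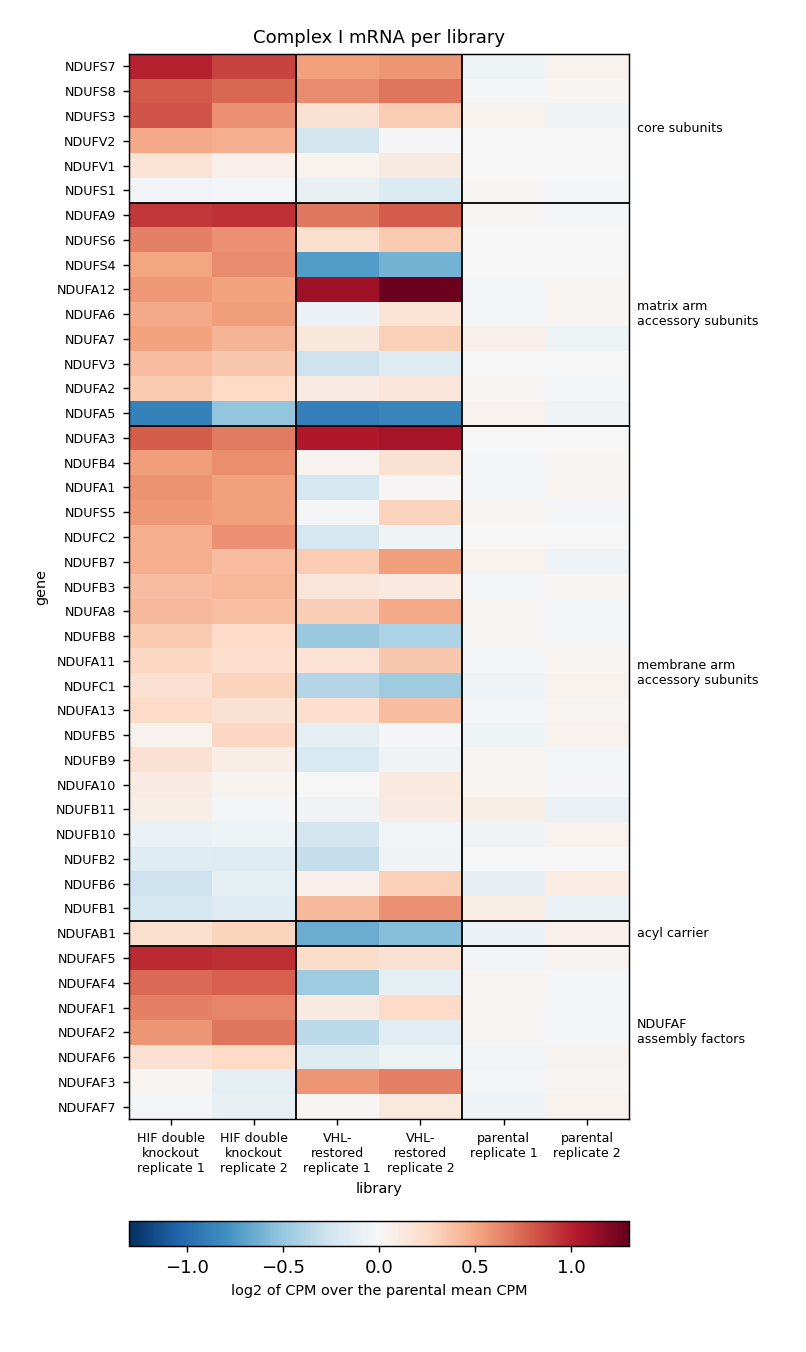
Log2 ratio of CPM in each library (columns) to the parental mean for 43 members (rows), grouped by role and ordered within each role by the double-knockout change. Red is higher and blue lower than the parental mean, and most rows are red in the double-knockout columns, while VHL-restored columns hold both colours.

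In the double knockout, complex I genes were mostly higher than in parental cells. Of the 44 members, 31 rose, 1 fell and 12 did not pass an adjusted p of 0.05 in edgeR's quasi-likelihood test with Benjamini-Hochberg adjustment over 18273 genes. Across all genes tested 54.1% were called, and 26.6% were called higher and 27.5% lower, so the members' share of 70.5% higher stood above the background and their share of 2.27% lower stood below it. Among genes passing edgeR's filterByExpr, a filter on low counts, the shares were 33.9% higher and 34.8% lower. The median log2 fold change of the members was 0.39, with a range of -0.69 to 0.97, against a median of -0.01 over expressed genes. Sizes were moderate: 10 of the 31 rises reached 1.5-fold. In edgeR's test against a 1.2-fold change, 22 members were higher and 1 lower, against 3314 and 3721 of all 18273 genes. A correction for transcript length and GC content lowered the counts to 26 higher and raised them to 6 lower, with a median of 0.24.

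VHL restoration gave a divided picture. Against parental cells, 15 members rose, 8 fell and 21 did not pass, with a median log2 fold change of 0.08 and a range of -0.87 to 1.19. Of all genes tested, 54.2% were called, 26.5% higher and 27.7% lower, and the members' shares were 34.1% and 18.2%. Among genes passing filterByExpr 33.6% were higher and 35.1% lower, so the members' share of rises was near the background and their share of falls was below it. The split turned with 1 library: without VHL-restored replicate 2 it was 12 higher and 15 lower, with a median of 0.01. With libraries scaled to an equal median level, it was 20 higher and 5 lower, and under the length and GC correction 20 higher and 12 lower. Both engineered groups were compared with the same 2 parental libraries, so their fold changes are given side by side below and no overlap is read from them.

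Set directly against each other, the double knockout exceeded the VHL-restored cells for 25 members and was lower for 5, with 14 not passing. Of all genes tested 56.0% were called, 28.0% in each direction, against 56.8% higher and 11.4% lower among members, and genes passing filterByExpr gave 35.5% higher and 35.4% lower. The median difference was 0.26 on the log2 scale, with a range of -0.71 to 1.23.

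**Figure D2:**
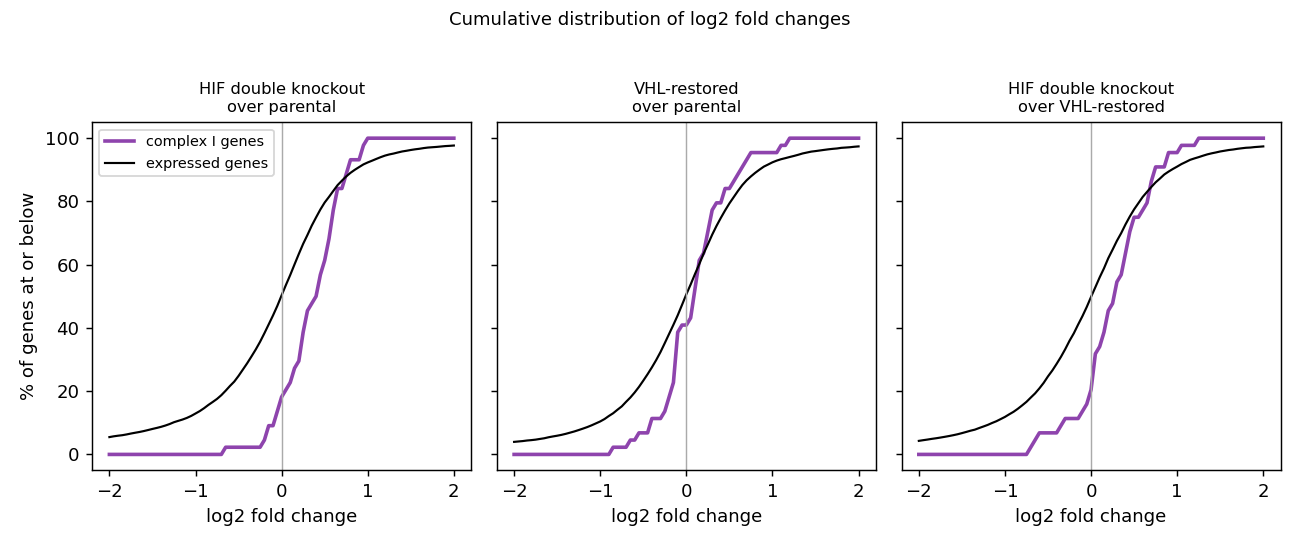
Cumulative percentage of genes (vertical axis) at or below each log2 fold change (horizontal axis) for the 44 complex I members (purple) and for expressed genes (black), one panel per comparison. The purple curve lies to the right over most of its range for the double knockout over parental cells (median 0.39) and over VHL-restored cells (median 0.26). For VHL-restored over parental cells (median 0.08) it lies to the right of the black curve below 0. There, 13.64% of members and 35.22% of expressed genes were at or below -0.25. Above 0 these curves are closer and cross.

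Among the core subunits, members of the quinone-side module led in the double knockout. NDUFS7, which carries the last iron-sulfur cluster before ubiquinone, had 41.8 and 38.3 CPM in double-knockout cells, 30.2 and 31.1 CPM in VHL-restored cells, and 20.2 and 21.7 CPM in parental cells. The 3 groups did not overlap: the log2 fold change was 0.94 ± 0.08 (SE, adjusted p = 1.49e-11) for the double knockout over parental cells, 0.55 ± 0.08 (1.02e-06) for VHL-restored over parental cells, and 0.39 ± 0.08 (6.99e-05) for the double knockout over VHL-restored cells. NDUFS8, a neighbouring iron-sulfur subunit, had 67.8 and 65.6 CPM in double-knockout, 59.9 and 63.2 CPM in VHL-restored and 38.3 and 39.6 CPM in parental libraries. Parental cells were exceeded by the double knockout (log2 0.78 ± 0.07, adjusted p = 6.53e-11) and by VHL-restored cells (0.66 ± 0.07, 2.5e-09), and the difference between them, 0.12 ± 0.07, did not pass (adjusted p = 0.161).

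NDUFS3, a subunit of the same module, reached 70.4 and 60.4 CPM in double-knockout cells, with 46.0 and 50.2 CPM in VHL-restored and 41.1 and 38.8 CPM in parental cells. Its log2 fold changes over parental cells were 0.71 ± 0.08 (adjusted p = 3.57e-09) in the double knockout and 0.27 ± 0.08 (0.0056) in VHL-restored cells. The second call was lost without either parental library or without VHL-restored replicate 2, with adjusted p up to 0.147. NDUFS3 shares exons with PTPMT1 on the same strand, and PTPMT1, named here after its values were seen, had log2 fold changes over parental cells of 0.72 in the double knockout and 0.38 in VHL-restored cells, so reads of the pair cannot be told apart.

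The subunits that receive electrons from NADH moved less evenly. NDUFV2, an iron-sulfur subunit next to the flavin, had 112 and 111 CPM in double-knockout cells, against 67.9 and 78.5 CPM in VHL-restored and 79.8 and 80.1 CPM in parental cells. The double-knockout libraries stood above all others, with log2 fold changes of 0.48 ± 0.07 over parental (adjusted p = 4.45e-07) and 0.60 ± 0.07 over VHL-restored cells (5.29e-09).

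NDUFV1 and NDUFS1, the flavin-bearing subunit and the largest core subunit of the matrix arm, passed in no comparison. NDUFV1 had 123.3 and 114 CPM in double-knockout cells, 112 and 118 CPM in VHL-restored cells, and 108 and 110 CPM in parental cells. NDUFS1 had 96.6 and 98.0 CPM in double-knockout, 92.9 and 88.0 CPM in VHL-restored and 101 and 97.9 CPM in parental libraries. The log2 fold changes over parental cells were 0.13 ± 0.06 for NDUFV1 and -0.03 ± 0.06 for NDUFS1 in the double knockout. They were 0.08 ± 0.06 for NDUFV1 and -0.13 ± 0.06 for NDUFS1 in VHL-restored cells.

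**Figure D3:**
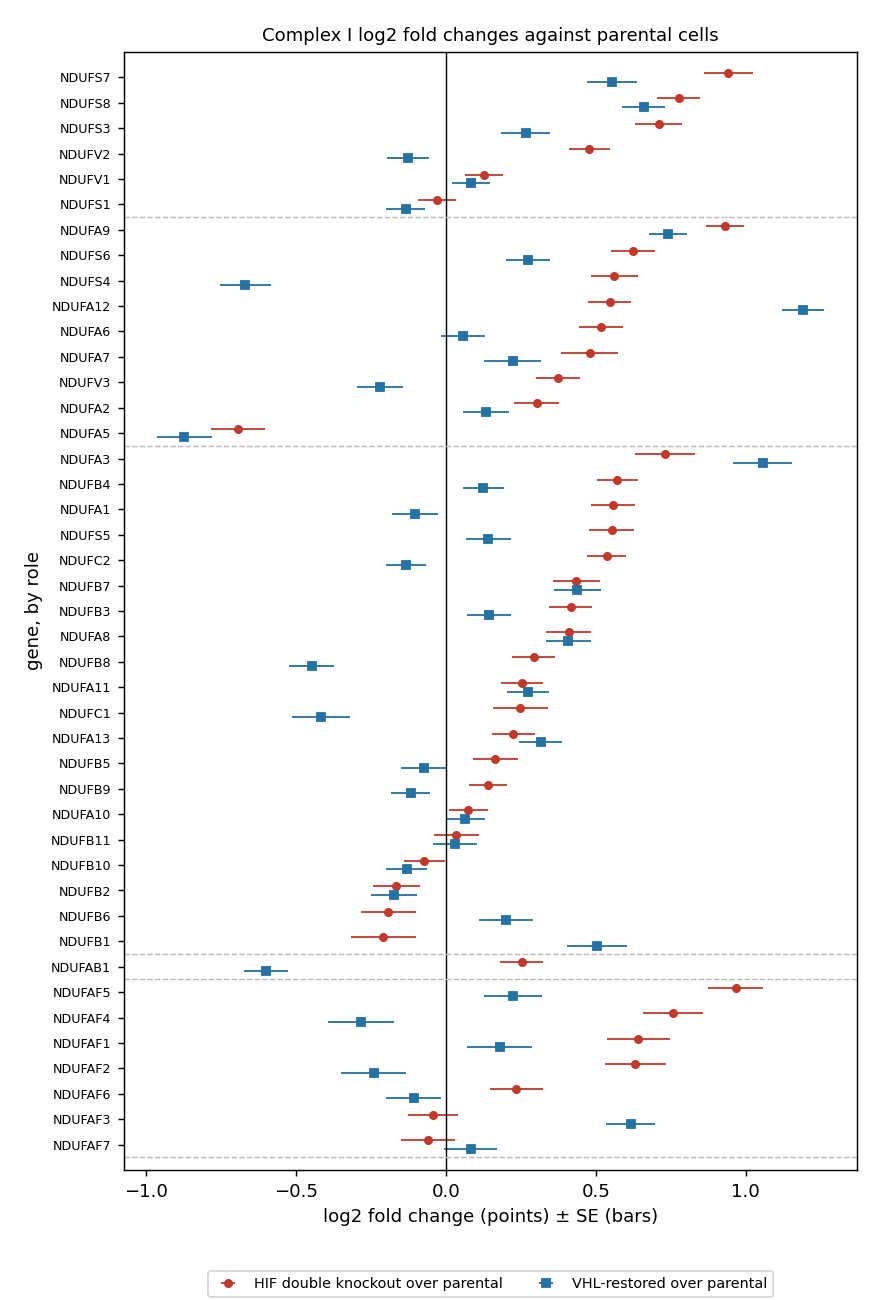
Log2 fold changes over parental cells with standard errors (horizontal axis) for 43 members (vertical axis, in the same role blocks), for the double knockout (red circles) and VHL-restored cells (blue squares). NDUFA9, NDUFS7 and NDUFAF5 lie near 1 for the double knockout, NDUFA12 and NDUFA3 lie past 1 for VHL-restored cells, and NDUFS4 and NDUFAB1 have their symbols on opposite sides of 0.

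Of the 9 matrix arm accessory subunits, 8 rose and 1 fell in the double knockout, and 4 rose and 3 fell in VHL-restored cells. These are 88.9% higher and 11.1% lower in the double knockout, against 26.6% and 27.5% of all genes. In VHL-restored cells they are 44.4% and 33.3%, against 26.5% and 27.7%. NDUFA9, a nucleotide-binding subunit at the joint of the arms, had 145 and 148 CPM in double-knockout cells, 124 and 133 CPM in VHL-restored cells, and 77.7 and 75.9 CPM in parental cells. All engineered libraries lay above the parental ones, with log2 fold changes of 0.93 ± 0.06 in the double knockout (adjusted p = 5.5e-14) and 0.74 ± 0.06 in VHL-restored cells (1.56e-11). The difference between the engineered groups was 0.19 ± 0.06 (0.0085) and did not hold when double-knockout replicate 2 or VHL-restored replicate 1 was dropped (adjusted p up to 0.0916).

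NDUFA12, which is added late to the NADH end of the arm, had 73.9 and 71.6 CPM in double-knockout cells, 107 and 121 CPM in VHL-restored cells, and 48.8 and 50.9 CPM in parental cells. It was the member with the highest rise in VHL-restored cells, 1.19 ± 0.07 on the log2 scale or 2.28-fold (adjusted p = 2.44e-15), and also rose in the double knockout by 0.55 ± 0.07 (9.42e-08). Here the double knockout lay below the VHL-restored cells (log2 difference -0.64 ± 0.07, 1.37e-09). NDUFAF2, the assembly factor related to NDUFA12 that holds its place before it joins, had 16.6 and 18.0 CPM in double-knockout, 8.80 and 10.1 CPM in VHL-restored and 11.3 and 11.0 CPM in parental libraries. Its order was the reverse of NDUFA12 between the engineered groups, with the double knockout higher by 0.87 ± 0.10 (8.84e-09). Over parental cells NDUFAF2 rose by 0.63 ± 0.10 in the double knockout (2.51e-06), and the VHL-restored value of -0.24 ± 0.11 did not pass (0.0628).

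NDUFS4, whose loss causes Leigh syndrome and which completes the NADH module, showed the widest gap between the engineered groups of any member. It had 40.3 and 43.4 CPM in double-knockout cells, against 17.1 and 18.5 CPM in VHL-restored cells, with 28.4 and 28.3 CPM in parental cells. The double knockout was 2.35-fold higher than VHL-restored cells (log2 1.23 ± 0.08, adjusted p = 3.38e-14). Over parental cells the double knockout rose by 0.56 ± 0.08 (2.61e-07) and VHL-restored cells fell by 0.67 ± 0.09 (4.92e-08). NDUFS4 has no exon overlap and no named pseudogene in GENCODE 29.

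NDUFA5, a small subunit of the quinone module, went against the rest. It had 22.8 and 29.4 CPM in double-knockout cells, 22.7 and 23.2 CPM in VHL-restored cells, and 43.3 and 40.6 CPM in parental cells. It was the member that fell in the double knockout, 1.62-fold (log2 -0.69 ± 0.09, adjusted p = 7.06e-08), and it fell 1.83-fold in VHL-restored cells (-0.87 ± 0.09, 9.6e-10). The engineered groups overlapped, and their difference of 0.18 ± 0.09 did not pass (0.11). NDUFA5 has 12 named pseudogenes, and no source used here says how shared reads were counted, so its level is uncertain.

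NDUFV3, an accessory subunit of the NADH module, had 52.6 and 50.8 CPM in double-knockout cells, 33.1 and 35.5 CPM in VHL-restored cells, and 39.8 and 40.0 CPM in parental cells. The 3 groups were separate, with a direct difference of 0.59 ± 0.07 (adjusted p = 3.27e-08) between the engineered ones. It rose in the double knockout (0.37 ± 0.07, 5.96e-05), and its fall in VHL-restored cells (-0.22 ± 0.08, 0.0145) was lost without either parental library, without VHL-restored replicate 1 or with an equal median level, with adjusted p up to 0.127. NDUFS6, a zinc-binding subunit, and NDUFA7 rose against parental cells in both engineered groups. The log2 fold changes in the double knockout were 0.62 for NDUFS6 and 0.48 for NDUFA7, and VHL-restored cells had 0.27 and 0.22 for the same genes. The VHL-restored call of NDUFA7 (adjusted p = 0.0492) held under only 6 of 14 alternatives. It was lost with no filter, in DESeq2, with only the 4 libraries compared and under the length and GC correction. Dropping either parental library or VHL-restored replicate 2 also lost it. NDUFA7 shares exons with RPS28 on the other strand. NDUFA6 (0.52) and NDUFA2 (0.30) rose in the double knockout, with 0.06 and 0.13 in VHL-restored cells, which did not pass. The NDUFA2 rise was lost under the length and GC correction (adjusted p up to 0.0619).

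In the membrane arm 12 of 20 accessory subunits rose and none fell in the double knockout, and 6 rose and 2 fell in VHL-restored cells. These are 60% higher and 0% lower in the double knockout, against 26.6% and 27.5% of all genes. In VHL-restored cells they are 30% and 10%, against 26.5% and 27.7%, so the share of rises was near the background. Under the length and GC correction NDUFB1, NDUFB2, NDUFB6 and NDUFB10 were called lower in the double knockout. NDUFA3, a small single-span subunit, had 16.8 and 15.6 CPM in double-knockout cells, 20.1 and 20.5 CPM in VHL-restored cells, and 9.77 and 9.79 CPM in parental cells. It rose in both over parental cells, by 0.73 ± 0.10 in the double knockout (adjusted p = 1.68e-07) and 1.06 ± 0.10 in VHL-restored cells (6.22e-11), and the double knockout was below VHL-restored cells (log2 difference -0.33 ± 0.09, 0.00241). NDUFA3 has 5 named pseudogenes and shares exons with TFPT on the other strand, so its reads are also uncertain. NDUFA8 and NDUFB7, both built on paired cysteines of the intermembrane space, rose by 0.41 and 0.44 in the double knockout, and the VHL-restored cells gave 0.41 and 0.44 as well.

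NDUFB8, a subunit often probed as a sign of assembled complex I, had 64.5 and 60.5 CPM in double-knockout cells, 36.6 and 38.3 CPM in VHL-restored cells, and 51.6 and 50.5 CPM in parental cells. The groups did not overlap: the double knockout rose over parental cells (0.29 ± 0.07, adjusted p = 7.48e-04), VHL-restored cells fell (-0.45 ± 0.07, 4.38e-06), and the direct difference was 0.74 ± 0.07 (2.35e-10). The rise was lost under the length and GC correction (adjusted p up to 0.0768). NDUFB8 overlaps HIF1AN, the gene of the HIF asparaginyl hydroxylase, on the other strand. HIF1AN, named after its values were seen, had log2 fold changes over parental cells of -0.03 in the double knockout and -0.35 in VHL-restored cells, and no source used here says if the counting used strand.

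NDUFC1, another small membrane arm subunit, shares exons with MGARP on the same strand, so its reads are uncertain. It had 19.4 and 20.6 CPM in double-knockout cells, 12.9 and 12.2 CPM in VHL-restored cells, and 16.3 and 17.4 CPM in parental cells. Its direct difference was 0.67 ± 0.09 (adjusted p = 2.78e-07), and it fell in VHL-restored cells (-0.42 ± 0.10, 3.98e-04). Its rise in the double knockout (0.25 ± 0.09, 0.0208) was lost without either parental library, without double-knockout replicate 2, in DESeq2 and under the length and GC correction, with adjusted p up to 0.324.

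NDUFB1 and NDUFB6 ran the other way between the engineered groups. NDUFB1 had 10.3 and 10.7 CPM in double-knockout cells, against 16.1 and 18.2 CPM in VHL-restored cells and 12.8 and 11.3 CPM in parental cells. It rose in VHL-restored cells (0.50 ± 0.10, adjusted p = 7.36e-05), and the double knockout was lower than VHL-restored cells (-0.71 ± 0.10, 4.09e-07). NDUFB6 had 22.7 and 25.2 CPM in double-knockout, 28.8 and 34.1 CPM in VHL-restored and 25.6 and 29.3 CPM in parental libraries. Its direct difference of -0.39 ± 0.09 (3.78e-04) was no longer called when double-knockout replicate 1 was dropped (adjusted p = 0.0521), and it passed against parental cells in neither group.

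NDUFC2 was among the most abundant members, with 181 and 198 CPM in double-knockout cells, 112 and 127 CPM in VHL-restored cells, and 131 and 130 CPM in parental cells. The double knockout rose by 0.54 ± 0.07 over parental (adjusted p = 2.2e-08) and by 0.67 ± 0.07 over VHL-restored cells (2.43e-10). The read-through row NDUFC2-KCTD14, which shares its exons, had 147 and 158 CPM in double-knockout, 96.8 and 110 CPM in VHL-restored and 104 and 104 CPM in parental libraries, so reads may be split between or counted in both rows, and the level of NDUFC2 is uncertain. NDUFB4, NDUFA1 and NDUFS5 also rose in the double knockout, by 0.57, 0.56 and 0.55, while their VHL-restored values of 0.13, -0.10 and 0.14 did not pass. NDUFB4 and NDUFS5 have 12 and 6 named pseudogenes. NDUFB3 (0.42), NDUFA11 (0.25) and NDUFA13 (0.23) completed the rises. NDUFB3 was also higher in the double knockout than in VHL-restored cells (0.27 ± 0.07, adjusted p = 0.00165), a call lost under the length and GC correction, where the value was close to 0. The NDUFA11 call was lost without parental replicate 1 (adjusted p = 0.09), and the NDUFA13 call without either parental library, without double-knockout replicate 1 or under the length and GC correction (adjusted p up to 0.352). NDUFA11 (0.27) and NDUFA13 (0.32) rose in VHL-restored cells too, the first again not without parental replicate 1 (adjusted p = 0.063).

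NDUFA10, NDUFB2, NDUFB5, NDUFB9, NDUFB10 and NDUFB11 passed in neither comparison with parental cells. Their log2 fold changes were 0.07, -0.17, 0.16, 0.14, -0.07 and 0.03 for the double knockout, in that order of genes, and for VHL-restored cells 0.06, -0.17, -0.07, -0.12, -0.13 and 0.03. NDUFB5 and NDUFB9 were higher in the double knockout than in VHL-restored cells, by 0.24 ± 0.08 (adjusted p = 0.0075) and 0.26 ± 0.06 (9.05e-04). The NDUFB5 difference was lost without double-knockout replicate 2, with only the 4 libraries compared and under the length and GC correction (adjusted p up to 0.891), and the NDUFB9 difference without double-knockout replicate 1 (0.051).

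NDUFAB1, the mitochondrial acyl carrier protein, also serves fatty acid synthesis and iron-sulfur cluster assembly outside complex I. It had 73.3 and 77.6 CPM in double-knockout cells, 40.6 and 43.1 CPM in VHL-restored cells, and 60.4 and 66.5 CPM in parental cells. The double knockout was 1.80-fold higher than VHL-restored cells (log2 0.85 ± 0.07, adjusted p = 1.22e-11). VHL-restored cells fell 1.51-fold below parental cells (-0.60 ± 0.07, 2.79e-08). The rise of the double knockout over parental cells, 0.25 ± 0.07 (0.00304), was lost without parental replicate 1, without double-knockout replicate 2 and under the length and GC correction, with adjusted p up to 0.128.

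**Figure D4:**
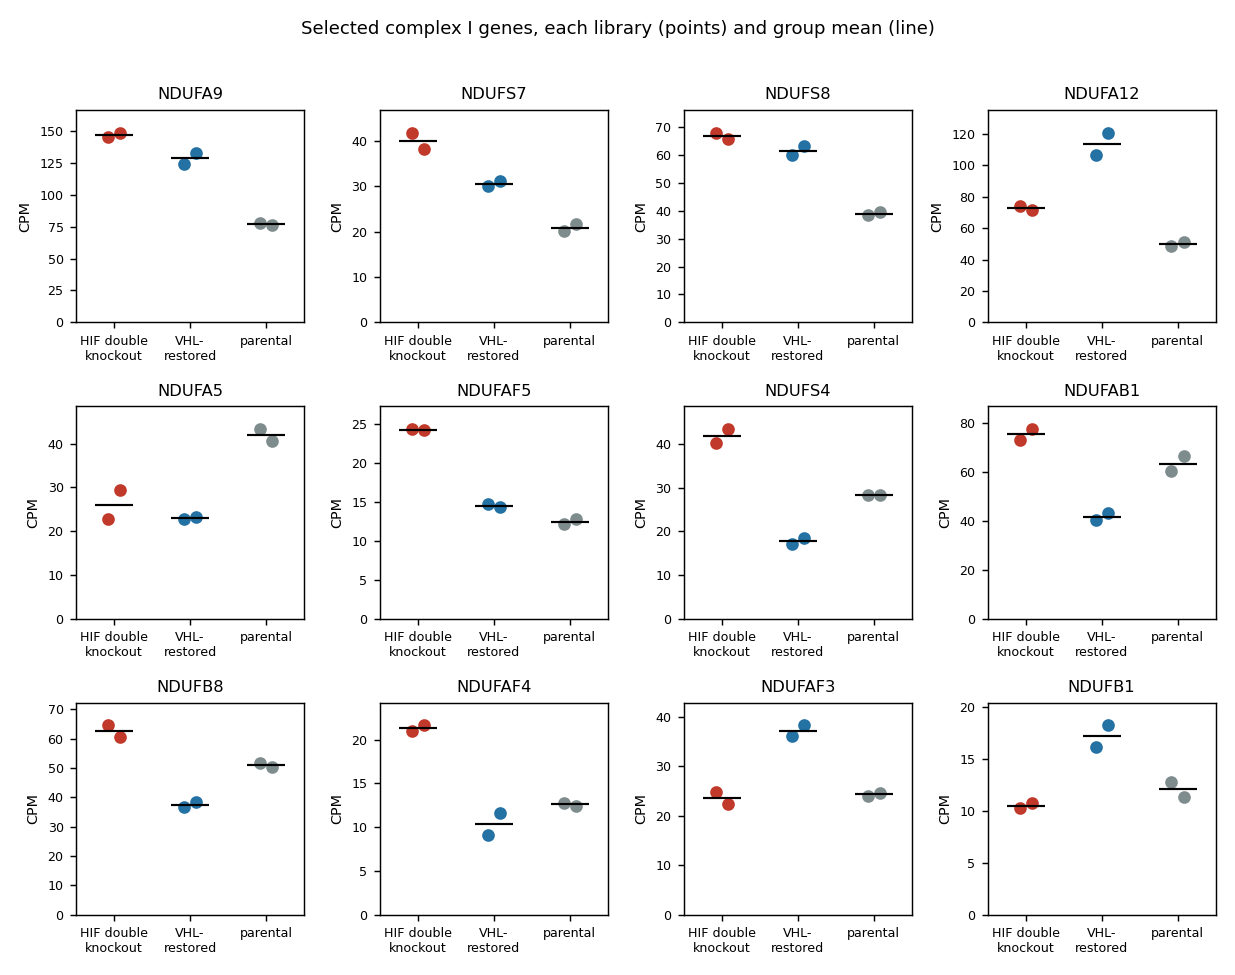
CPM (vertical axes, each from 0) of 12 members in each library (points) with the mean of 2 libraries (lines), for double-knockout, VHL-restored and parental cells. NDUFA9, NDUFS7 and NDUFS8 are higher in both engineered groups, NDUFA5 is lower in both, and for NDUFS4, NDUFAB1 and NDUFB8 the parental libraries lie between the other two groups.

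Of the 7 NDUFAF assembly factors, 5 rose and none fell in the double knockout, and 2 rose and 1 fell in VHL-restored cells. These are 71.4% higher and 0% lower in the double knockout, against 26.6% and 27.5% of all genes. In VHL-restored cells they are 28.6% and 14.3%, against 26.5% and 27.7%, so the share of rises was near the background. Under the length and GC correction NDUFAF3 was called lower in the double knockout. NDUFAF5, which hydroxylates an arginine of NDUFS7, had the largest rise of all members in the double knockout. It had 24.3 and 24.2 CPM in double-knockout cells, 14.7 and 14.3 CPM in VHL-restored cells, and 12.1 and 12.7 CPM in parental cells. The rise over parental cells was 1.95-fold (log2 0.97 ± 0.09, adjusted p = 9.8e-11) and that over VHL-restored cells 1.67-fold (0.74 ± 0.09, 1.24e-08). The VHL-restored value over parental cells was 0.22 ± 0.10 (0.0495), a call that was lost when any 1 of its 4 libraries was left out, with adjusted p up to 0.188.

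NDUFAF4 and NDUFAF3, partners that work on the quinone module, differed from each other. NDUFAF4 had 21.0 and 21.6 CPM in double-knockout cells, 9.16 and 11.6 CPM in VHL-restored cells, and 12.8 and 12.4 CPM in parental cells. It rose over parental cells in the double knockout (0.76 ± 0.10, adjusted p = 1.06e-07) and was 2.06-fold above VHL-restored cells (1.04 ± 0.10, 2.49e-10). Its fall in VHL-restored cells (-0.28 ± 0.11, 0.0293) was lost without either parental library, without VHL-restored replicate 1, with an equal median level, in DESeq2 and under the length and GC correction, with adjusted p up to 0.581. NDUFAF4 has 4 named pseudogenes. NDUFAF3 had 24.7 and 22.3 CPM in double-knockout cells, 36.1 and 38.2 CPM in VHL-restored cells, and 24.0 and 24.6 CPM in parental cells. Only the VHL-restored libraries stood apart, with a rise of 0.62 ± 0.08 over parental cells (9.24e-08), and the double knockout was lower than VHL-restored cells (-0.66 ± 0.08, 2.2e-08). NDUFAF3 shares exons with DALRD3 on the other strand.

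NDUFAF1, an early membrane arm factor that works with ECSIT, had 14.2 and 13.9 CPM in double-knockout cells, 9.73 and 10.6 CPM in VHL-restored cells, and 9.06 and 8.91 CPM in parental cells. It rose in the double knockout by 0.64 ± 0.10 (adjusted p = 3.32e-06), and the VHL-restored value of 0.18 ± 0.11 did not pass (0.172). NDUFAF6 rose in the double knockout by 0.23 ± 0.09 (0.0253), a call lost without either parental library, without double-knockout replicate 2 and in DESeq2 (adjusted p up to 0.18). NDUFAF7, a methyltransferase, passed in no comparison, with -0.06 ± 0.09 in the double knockout and 0.08 ± 0.09 in VHL-restored cells.

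Exon overlaps and pseudogenes touch many members: 18 have a named pseudogene and 17 share exons with another listed gene. The 14 members with neither gave 11 rises and no falls in the double knockout (median 0.40), 4 rises and 3 falls in VHL-restored cells (median 0.07), and 9 members higher and 1 lower in the double knockout than in VHL-restored cells (median 0.38). In that order, these are 78.6% higher and 0% lower, 28.6% and 21.4%, and 64.3% and 7.14%. All genes gave 26.6% and 27.5%, 26.5% and 27.7%, and 28.0% and 28.0%. The share of rises in VHL-restored cells was thus near the background.

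Among 12 other factors of complex I assembly, 6 rose and 1 fell in the double knockout and 7 rose and 5 fell in VHL-restored cells. These are 50% higher and 8.33% lower in the double knockout, against 26.6% and 27.5% of all genes, and 58.3% higher and 41.7% lower in VHL-restored cells, against 26.5% and 27.7%. ECSIT had 37.9 and 35.9 CPM in double-knockout cells, 51.4 and 52.9 CPM in VHL-restored cells, and 22.6 and 21.3 CPM in parental cells. Parental cells lay below the double knockout (0.75 ± 0.08, adjusted p = 1.53e-09) and below VHL-restored cells (1.25 ± 0.08, 8.5e-15). TMEM126B, a partner of ECSIT, rose in the double knockout (0.52 ± 0.09, 7.97e-06). TMEM70, known for assembly of ATP synthase and complex I, fell in VHL-restored cells (-0.74 ± 0.08, 6.04e-09).

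Of 12 regulators of nuclear genes for mitochondrial proteins, 5 rose and 3 fell in the double knockout, and 5 rose and 5 fell in VHL-restored cells. These are 41.7% higher and 25% lower in the double knockout and 41.7% in each direction in VHL-restored cells, against the all-gene shares of 26.6% and 27.5% and of 26.5% and 27.7%. PPARGC1A, the coactivator PGC-1alpha that drives mitochondrial biogenesis, had 0.0684 and 0.311 CPM in double-knockout cells, 0.0715 and 0 CPM in VHL-restored cells, and 45.9 and 44.1 CPM in parental cells. It fell in the double knockout (adjusted p = 5.15e-25) and in VHL-restored cells (3.09e-25), while the summed complex I level was not below parental in either. Its relatives PPARGC1B and PPRC1 rose in the double knockout (0.98 ± 0.14, 2.2e-07, and 0.79 ± 0.07, 2.77e-11), as did ESRRA, a nuclear receptor of the same pathway (0.78 ± 0.08, 1.21e-09). PPARGC1B and ESRRA were also called higher in VHL-restored than in parental cells, and PPRC1 did not pass there. The VHL-restored call held under 13 of 14 alternatives for PPARGC1B and under 7 of 14 for ESRRA. PPRC1 had 159 and 144 CPM in double-knockout cells, 103 and 91.4 CPM in VHL-restored cells, and 92.1 and 83.7 CPM in parental cells. MYC had 261 and 261 CPM in double-knockout, 127 and 128 CPM in VHL-restored and 348 and 338 CPM in parental libraries, with log2 fold changes over parental cells of -0.40 ± 0.06 in the double knockout (3.62e-07) and of -1.43 ± 0.06 in VHL-restored cells (1.2e-19). Whether these regulators bear on the complex I genes was not tested.

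A list of partners of complex I held MDH2, DLD, ETFDH, COQ2, COQ7, COQ9, AIFM1 and CHCHD4. Of these 8 genes, 2 rose and 3 fell in the double knockout, and 3 rose and 4 fell in VHL-restored cells. With 25% higher and 37.5% lower in the double knockout, against 26.6% and 27.5% of all genes, the list lay near the background there, and VHL-restored cells had 37.5% higher and 50% lower, against 26.5% and 27.7%. COQ7, a hydroxylase of ubiquinone synthesis, had 12.7 and 14.8 CPM in double-knockout cells, 19.7 and 20.4 CPM in VHL-restored cells, and 32.6 and 31.7 CPM in parental cells. It fell 2.34-fold in the double knockout (-1.23 ± 0.09, adjusted p = 3.14e-13) and 1.60-fold in VHL-restored cells (-0.68 ± 0.09, 4.55e-08). ETFDH, which feeds electrons of fatty acid oxidation into the same quinone pool, also fell in the double knockout (-0.59 ± 0.11, 2.25e-05) and in VHL-restored cells (-0.95 ± 0.11, 1.27e-08).

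Other nuclear genes of mitochondrial proteins were also mostly higher in the double knockout than in parental cells, and no test set the lists against each other. Among genes matched by the symbols of respiratory complexes II to V, 28 of 45 tested rose and 4 fell (62.2% and 8.89%), with a median of 0.23. The symbols also match ATP5SL, which is counted among the other assembly factors above. Among 76 mitochondrial ribosomal proteins 57 rose and 5 fell (75% and 6.58%), with a median of 0.41. All genes gave 26.6% and 27.5%. In VHL-restored cells the same lists gave 18 higher and 9 lower (40% and 20%, median 0.11), and 36 higher and 12 lower (47.4% and 15.8%, median 0.14). The all-gene shares there were 26.5% and 27.7%. Between the engineered groups, 22 of the first list were higher and 10 lower in the double knockout (48.9% and 22.2%, median 0.20). Of the second list, 47 were higher and 6 lower (61.8% and 7.89%, median 0.26), against 28.0% of all genes in each direction.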

How the data were processed

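Polyadenylated RNA of 6 RCC10 libraries was counted per gene symbol. The deposited values are whole-number counts for 19009 genes, made by the authors. The submitters' processing notes list HISAT2 2.2.1, Trimmomatic 0.39, FastQC 0.74, limma 3.58.1 and featureCounts 2.0.8. They also name hg38 and hg19 without roles. No source used here states strand, multi-mapping or overlap settings, so antisense, overlapping and pseudogene-bearing genes are uncertain.

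The 18273 genes counted in any library were tested with edgeR 4.0.16 (R 4.3.3): TMM scaling (factors 0.977 to 1.02), 3 group means over all 6 libraries, quasi-likelihood test, prior count 0.125, Benjamini-Hochberg adjustment per comparison over all genes tested, threshold 0.05. The biological coefficient of variation was 4.41%. SE is the Wald error of the same fit. Levels per kilobase use the median GENCODE 29 transcript length. The procedure was tested on simulated data. Alternatives were DESeq2 1.42.0, other scalings and filters, a test against 1.2-fold, length and GC offsets, a replicate block, the 4 libraries of a comparison alone, and leaving out each library.

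The members and lists were chosen with earlier results of these data known. Values per library are given for core subunits, for the 6 largest rises and falls per comparison whose libraries do not overlap, and for members called in opposite directions. NDUFAF1 and NDUFC2, outside this rule, are shown by role. For other lists, the genes named were picked after their values were seen from the 4 largest called changes of a comparison. The values of 1 member are counted in the totals and are not reported here.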

Additional observations from a re-analysis of the deposited data

How the results depend on the processing

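Across 14 alternatives other than the 1.2-fold test, 23 of the 31 members called higher and the 1 called lower in double-knockout against parental cells held under every one. For VHL-restored against parental cells 11 of 15 and 5 of 8 held, and for the double knockout against VHL-restored cells 20 of 25 and 4 of 5. The number of members lower in the double knockout than in parental cells was 2 with filterByExpr, 3 with only the 4 libraries compared, and 6 under the length and GC correction, where the median log2 fold change was 0.24. In VHL-restored against parental cells, 9 were higher and 5 lower in the 1.2-fold test, and 5 lower with an equal median level, a scaling chosen after seeing the data. Leaving out each library moved the lower count between 5 and 15, the higher count between 11 and 17 and the median between 0.01 and 0.14. Without parental replicate 1 or 2 the higher and lower counts were 11 and 5, and 12 and 5. For the double knockout against VHL-restored cells, 18 were higher and 3 lower in the 1.2-fold test. Under the length and GC correction 8 were lower there, with a median of 0.15. The cause of these shifts was not tested.

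Replicate numbers are not said to pair libraries, and same-numbered deviations correlated by 0.01 to 0.07. With a replicate block, members were 33 higher and 3 lower (double knockout against parental) and 16 higher and 11 lower (VHL-restored against parental). With both the replicate block and the length and GC correction, they were 26 higher and 6 lower with a median of 0.24 in double-knockout against parental cells, 20 higher and 12 lower in VHL-restored against parental cells, as under the correction alone, and 8 were lower with a median of 0.15 in double-knockout against VHL-restored cells.

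A called member changed sign: NDUFB3, higher by 0.27 in the double knockout than in VHL-restored cells, was -0.00037 at its lowest, under the length and GC correction. The other sign changes were of values that did not pass as reported, and those given below are only a part of them. Among those left out is NDUFA8 between the engineered groups, at 0.00061, which had the other sign in 10 of 14 alternatives. In double-knockout against parental cells, NDUFS1 was 0.020 with an equal median level, and HIF1AN was 0.018 there and 0.25 under the length and GC correction with and without the block. Leaving out each library gave -0.061 to 0.00012 for HIF1AN. In VHL-restored against parental cells, NDUFV1 was -0.022 (-0.023 with the block) under the length and GC correction, and NDUFC2-KCTD14 was 0.0025 with filterByExpr, 0.048 with an equal median level and -0.10 to 0.078 with each library left out. NDUFV1 was -0.013 to 0.096 in the double knockout against VHL-restored cells with each library left out. Members had 202 or more counts in each library, and counting error is part of the spread between libraries, most of all where counts are low.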
